A study of Schizosaccharomyces pombe with 9 samples.

Results

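The long non-coding RNAs described here are 129 of the 6988 gene IDs counted in fission yeast (Schizosaccharomyces pombe). They were chosen from the 1527 IDs of the SPNCRNA series, which holds annotated non-coding transcripts, by 3 conditions: neither the gene name nor the product description contained the word antisense, the raw read count averaged at least 100 over the 9 libraries, and the ID was not prt2, nc-pho1 or nc-tgp1. Of the 1527 IDs, 693 were named antisense and 834 were not, and of those 834 there were 703 below the minimum and 2 that were left out by name. The 9 libraries came from 3 strains, all of mating type h- and all grown to log phase in rich YES medium, with 3 biological replicates of each: snf22-(D996A-E997A), in which an aspartate and a glutamate of the Snf22 ATPase motif are replaced by alanine and the gene is followed by the nmt1 poly(A) site, snf22∆, in which the reading frame except its last part is replaced by a kanMX drug resistance marker, and WT. Both mutants carry kanMX at snf22 and WT does not, and each genotype was represented by a single strain. The mean count that chose the RNAs pools all 3 genotypes, but 6 of the 9 libraries are from mutants, so an RNA high only in the mutants met the minimum at a lower level than one high only in WT. The choice therefore favours RNAs that are higher in the mutants, and counts of calls upward and downward are to be read with that in mind.

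Snf22 is the ATPase of the fission yeast SWI/SNF complex, which uses ATP to slide or evict nucleosomes and so alters the access of transcription factors and RNA polymerase II to promoters. Fission yeast transcribes much of the sequence between its genes. Some of these RNAs are removed by the nuclear exosome soon after they are made, some run through the promoter of a neighbouring gene and reduce or aid its transcription, and a few are structural RNAs of enzymes such as telomerase, RNase P and RNase MRP.

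The libraries held 15696972 to 22664218 counted reads. The chosen RNAs took 0.632% to 0.656% of the reads in snf22-(D996A-E997A), 0.660% to 0.691% in snf22∆ and 0.566% to 0.603% in WT, and 0.405% to 0.492% of all reads belonged to 1 of them, prl53. The snf22 transcript itself had normalized counts of 1966, 2273 and 2312 in snf22-(D996A-E997A), 1471, 1379 and 1222 in snf22∆, and 2835, 2779 and 2738 in WT, where a normalized count is the read count scaled to the mean library size. It was therefore still counted in the deletion strain, which by the paper's construction keeps the last part of the reading frame and the flanking sequence. The table does not show where along the retained sequence those reads lay. The genes that mark M cells, which all 3 strains are by mating type, summed to 11008 to 11759 normalized counts in snf22-(D996A-E997A), 3004 to 3968 in snf22∆ and 5711 to 6369 in WT over 6 genes. The 15 stress mRNAs listed summed to 58059 to 67203 in snf22-(D996A-E997A), 63509 to 78485 in snf22∆ and 68002 to 108288 in WT.

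By their product descriptions, 79 of the 129 were predicted intergenic RNAs, 36 were predicted intergenic RNAs that may be alternative UTRs of a neighbouring gene, and 14 had another description or a known function. In the RefSeq annotation (ASM294v3), to which 128 could be matched, they were 355 to 4025 bases long, with a median of 1333.5, and 56 overlapped a coding gene, 21 of them on the same strand and 35 only on the other. Of the rest, 42 both started beside the start of a coding gene on the other strand and preceded a coding gene on their own strand, 17 had only the divergent neighbour, 11 had only the downstream neighbour and 2 had neither. Extents in the annotation that the authors counted against may differ from these. A neighbour here, or a gene that an RNA starts beside, is the nearest coding gene on that side, at any distance. How the counting treated strand is not given in the sources used here. Coding genes covered to at least 90% by a counted gene of the other strand had a median normalized count of 724.5 (557 genes), against 1468.5 for the other 4408.

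A single RNA outweighed all others in abundance. prl53, a poly(A)-bearing RNA, had normalized counts of 88383, 97204 and 89808 in snf22-(D996A-E997A), 88333, 96759.9 and 89857 in snf22∆, and 85524, 96337 and 87761 in WT, or 49567, 49487 and 48528 per kb of annotated length in the same order of genotypes. The median over the 128 RNAs with a known length was 157.8 normalized counts per kb in snf22-(D996A-E997A), 168.7 in snf22∆ and 149.2 in WT. Next to prl53 stood SPNCRNA.1390 in snf22-(D996A-E997A) (1050.0 per kb), SPNCRNA.388 in snf22∆ (817 per kb) and SPNCRNA.863 in WT (1122 per kb). The members just inside the minimum were SPNCRNA.1284, SPNCRNA.907 and SPNCRNA.1533, with mean raw counts of 101.0, 101.3 and 101.4, and those just outside were SPNCRNA.1257, SPNCRNA.970 and SPNCRNA.732, with 99.7, 98.4 and 98.0. A mean raw count of at least 100 was reached by 117 of the RNAs in the snf22-(D996A-E997A) libraries alone, by 123 in snf22∆ and by 97 in WT, and by 84 in each of the 3 genotypes, so more of the RNAs met it through the mutants than through WT. Library size is part of this, since WT replicate 3 had the smallest total, 15696972. SPNCRNA.1350, for example, averaged 94.3 raw but 105 normalized counts in WT.

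Both mutants were set against WT, and then against each other, to ask which of these RNAs change when Snf22 is absent or lacks its ATPase. An RNA was called different where the edgeR adjusted p did not exceed 0.05, the groups differed 2-fold or more, and the higher group averaged 100 normalized counts or more. All 129 entered the fit over 6091 genes. In snf22-(D996A-E997A), 19 of the 129 (14.7%) were called higher than in WT, where 1.9% of all genes tested were, and 9 (6.98%) were called lower, beside 3.07% of all genes. In snf22∆, 26 (20.2%) were called higher, beside 2.56% of all genes, and 7 (5.43%) were called lower, beside 3.09%. Of the 5157 genes with a mean raw count of at least 100, members included, snf22-(D996A-E997A) had 2.02% called upward and 2.54% downward, and snf22∆ 2.81% and 2.83%. Among the calls, 6 of the 19 upward and 4 of the 9 downward ones in snf22-(D996A-E997A), and 10 of the 26 higher and 3 of the 7 lower in snf22∆, were of RNAs with a mean raw count of at least 100 in every genotype. The libraries of the 2 groups did not overlap for any of these calls, which the thresholds for a call largely imply. Called or not, 46 of the 129 lay wholly above WT and 32 wholly below it in snf22-(D996A-E997A), and 55 and 37 in snf22∆. The share of all genes without overlap was not counted.

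By the adjusted p alone, 44 RNAs lay above WT and 25 below it in snf22-(D996A-E997A), beside 25.8% and 22.7% of all genes, and 50 lay above and 27 below in snf22∆, beside 30.2% and 25.8%. The median log2 fold change over the 129 RNAs was 0.08 in snf22-(D996A-E997A) and 0.15 in snf22∆, against 0.02 in both over all genes tested. Against WT, 14 RNAs were called higher and 4 lower in both mutants, which share the WT libraries. A further 5 were called higher and 5 lower in snf22-(D996A-E997A) only, and 12 and 3 in snf22∆ only. Of the 12 that were called higher in snf22∆ only, 8 passed the adjusted p in the same direction in snf22-(D996A-E997A), as did 3 of the 5 the other way round. None was called in opposite directions, and 32 of the 129 passed the adjusted p in none of the 3 comparisons. The corresponding counts over all genes tested were not made, so whether the overlap between the mutants is particular to these RNAs is not known.

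**Figure D1:**
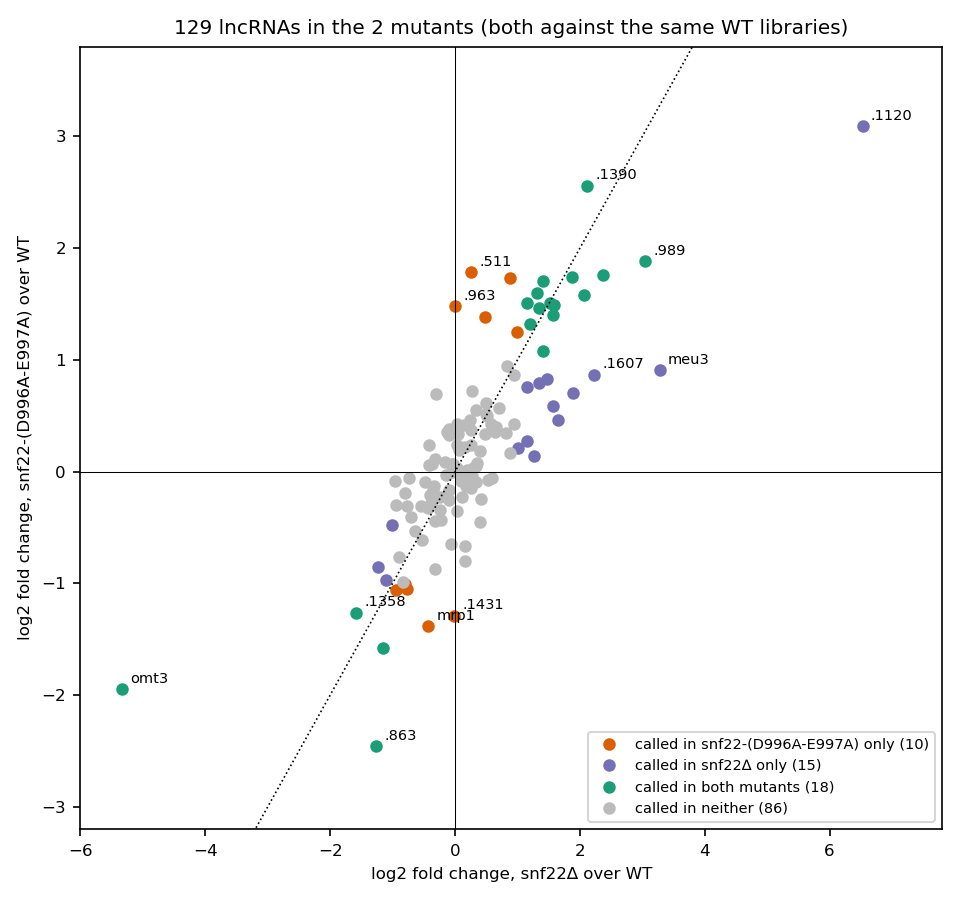
Log2 fold change of each of the 129 lncRNAs over WT in snf22∆ (horizontal axis) and in snf22-(D996A-E997A) (vertical axis), 1 point an RNA, with labels giving the part of the ID after SPNCRNA and a dotted line where both changes are equal. Green points (18) were called in both mutants, orange (10) in snf22-(D996A-E997A) only, purple (15) in snf22∆ only and grey (86) in neither, and SPNCRNA.1120 and omt3 lie farthest from 0.

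The largest increase was that of SPNCRNA.1120, a predicted intergenic RNA beside ght1, which encodes a hexose transporter. Its normalized counts were 64.9, 76.7 and 72.8 in snf22-(D996A-E997A), 734, 775 and 812 in snf22∆, and 5.86, 5.68 and 14.3 in WT. The 3 groups stood apart, with snf22-(D996A-E997A) between the others. Over WT the log2 fold change was 3.09 ± 0.26 (SE) in snf22-(D996A-E997A) (edgeR adjusted p = 5.80e-06) and 6.53 ± 0.22 in snf22∆ (adjusted p = 2.21e-09), an 8.53-fold and a 92.3-fold increase. The change in snf22-(D996A-E997A) was not among the calls because its mean there, 71.4, is below 100. SPNCRNA.1120 met the count minimum of the set only through snf22∆, with mean raw counts of 71.7 in snf22-(D996A-E997A), 853 in snf22∆ and 7.33 in WT. Its raw counts in WT were 6, 5 and 11, near the floor, so the fold increases over WT are imprecise. SPNCRNA.1120 lies on the strand opposite to ght1 and runs towards its end, and ght1 rose in both mutants, by 4.70 ± 0.12 in snf22-(D996A-E997A) and 5.13 ± 0.12 in snf22∆. Between the mutants the lncRNA differed 10.8-fold, with snf22-(D996A-E997A) the lower (log2 fold change -3.44 ± 0.16, adjusted p = 1.03e-07), while ght1 differed by -0.43 ± 0.09. ght8, the hexose transporter gene on its other side, was at 0.07 (adjusted p = 0.574) and 0.27 (adjusted p = 0.0409). The sequence around its start is shown because this RNA had the largest change; it is RefSeq's, on the plus strand of chromosome III, from 250 bases before the annotated start to 50 after it, and the capitals mark TATAAA, read here on the other strand, 127 bases before the start.
SPNCRNA.1120: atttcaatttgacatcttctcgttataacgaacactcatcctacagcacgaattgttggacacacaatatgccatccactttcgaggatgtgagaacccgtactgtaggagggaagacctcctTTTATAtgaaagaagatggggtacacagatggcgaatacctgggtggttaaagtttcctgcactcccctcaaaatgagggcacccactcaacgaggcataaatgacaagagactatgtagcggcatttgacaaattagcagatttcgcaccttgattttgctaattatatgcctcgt

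meu3 and meu19 are transcripts of genes that are known for being induced in meiosis, and they rose mainly in the deletion. meu3 had normalized counts of 143, 97.3 and 95.3 in snf22-(D996A-E997A), 582, 581 and 576 in snf22∆, and 42.0, 89.7 and 48.0 in WT. Its level in snf22∆ was 9.69 times that in WT (log2 fold change 3.28 ± 0.25, adjusted p = 1.64e-06), and in snf22-(D996A-E997A) the change was 0.91 ± 0.26 (adjusted p = 0.0146), below 2-fold. meu19 had 306, 212 and 175 in snf22-(D996A-E997A), 626, 521 and 435 in snf22∆, and 142, 196 and 166 in WT. It rose in snf22∆ by 1.65 ± 0.21 (adjusted p = 1.06e-04), and its change in snf22-(D996A-E997A), 0.46 ± 0.22, did not pass (adjusted p = 0.0955). Both lay on chromosome III, and 62.2% of the 50-base words of meu3 and 61.3% of those of meu19 occur more than once in the reference genome. Only their start regions were compared with one another. Reads from repeated stretches cannot be assigned to a single place, and how the counting treated them is not given in the sources used here. The 2 values may therefore not be independent, which was not tested. The start regions are shown because they are identical at 296 of 297 aligned positions, meu3 read from the minus strand and meu19 from the plus strand. Neither holds a motif that was searched.
meu3: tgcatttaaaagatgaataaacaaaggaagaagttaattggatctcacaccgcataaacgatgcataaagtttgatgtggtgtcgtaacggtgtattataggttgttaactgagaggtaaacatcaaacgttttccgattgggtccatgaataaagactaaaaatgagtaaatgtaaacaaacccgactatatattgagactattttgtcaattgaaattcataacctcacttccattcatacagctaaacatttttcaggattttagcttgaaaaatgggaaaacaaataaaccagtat
meu19: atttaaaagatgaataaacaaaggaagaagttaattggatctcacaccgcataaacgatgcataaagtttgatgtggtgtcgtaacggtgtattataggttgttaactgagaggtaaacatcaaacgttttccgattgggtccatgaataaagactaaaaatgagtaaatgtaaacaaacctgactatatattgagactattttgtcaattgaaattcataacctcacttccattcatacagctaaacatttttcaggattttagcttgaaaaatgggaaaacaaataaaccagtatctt

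SPNCRNA.989 rose in both mutants, and reached higher counts than any other RNA called higher except SPNCRNA.1571. Its normalized counts were 505, 453 and 436 in snf22-(D996A-E997A), 1206, 1034 and 880.3 in snf22∆, and 124, 136 and 117 in WT, with no overlap between any pair of groups. The log2 fold change over WT was 1.89 ± 0.14 in snf22-(D996A-E997A) (adjusted p = 2.02e-06) and 3.05 ± 0.14 in snf22∆ (adjusted p = 2.60e-08), and the difference between snf22-(D996A-E997A) and snf22∆ was -1.16 ± 0.12 (adjusted p = 7.51e-05). It starts beside atd1, an aldehyde dehydrogenase gene read in the other direction, which changed by 1.39 ± 0.19 in snf22-(D996A-E997A) and 0.55 ± 0.19 in snf22∆, and was higher in snf22-(D996A-E997A) than in snf22∆ by 0.84 ± 0.19 (adjusted p = 0.0105), where the lncRNA was lower. SPNCRNA.253, upstream of pvg5, had 100.2, 95.4 and 133 in snf22-(D996A-E997A), 187, 167 and 149 in snf22∆, and 34.2, 42.0 and 19.4 in WT. It rose by 1.76 ± 0.25 in snf22-(D996A-E997A) and 2.38 ± 0.25 in snf22∆, and pvg5 by 0.88 and 0.81. Without snf22-(D996A-E997A) replicate 3 its log2 fold change was 1.61 and its mean there fell under the minimum for a call.

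**Figure D2:**
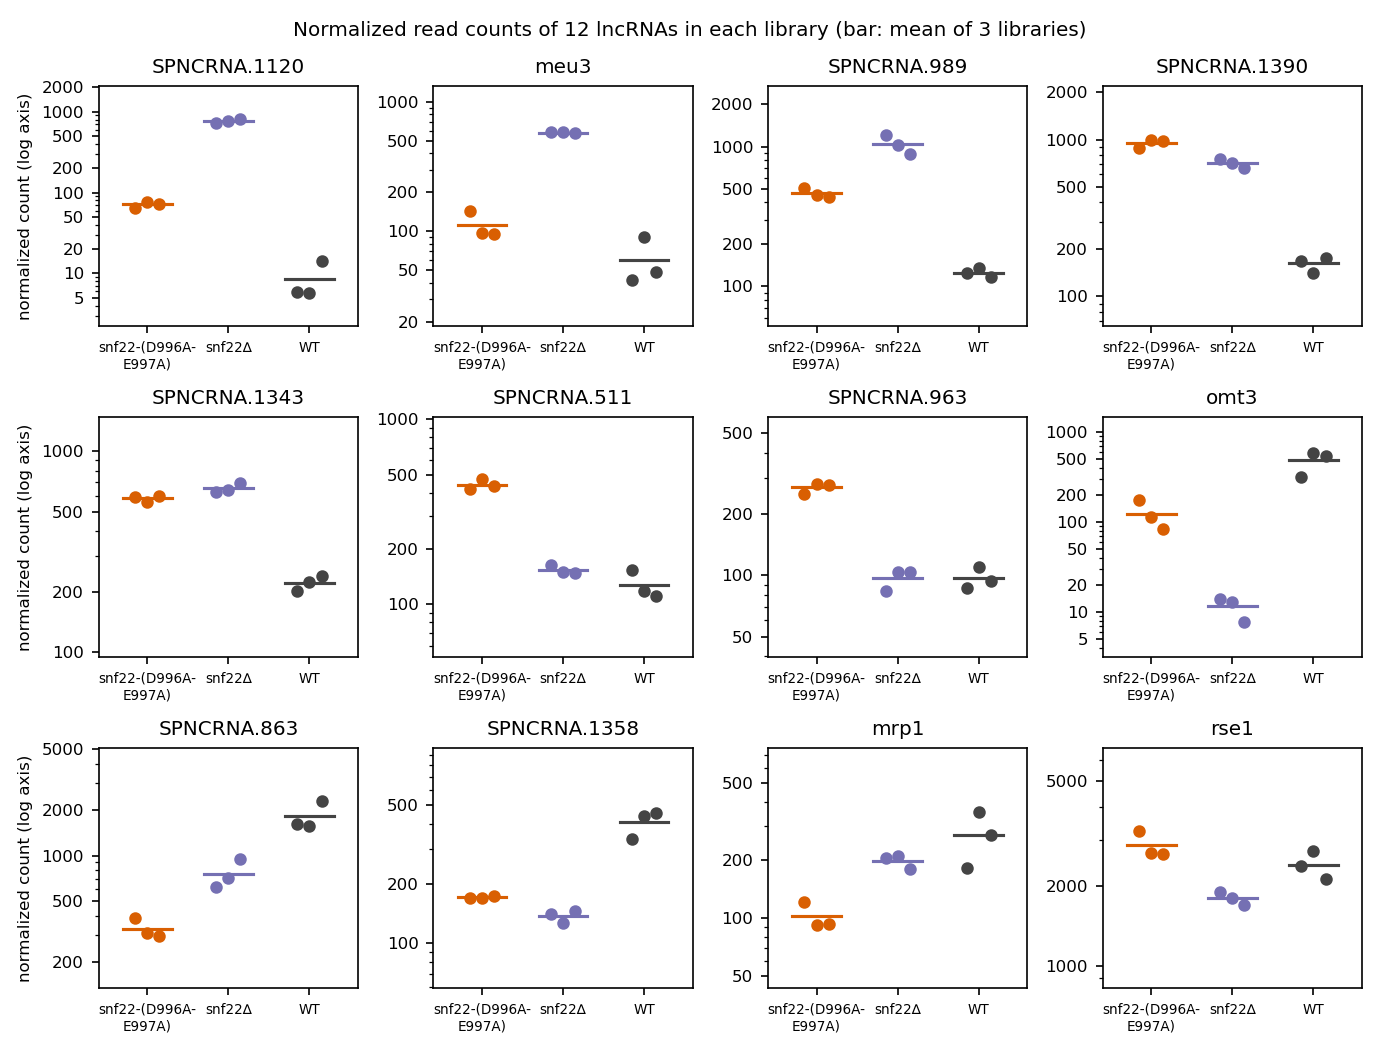
Normalized read counts (log axes, 1 panel an lncRNA) in the 3 libraries of snf22-(D996A-E997A), snf22∆ and WT; points are libraries and bars are means. SPNCRNA.1120, meu3 and SPNCRNA.989 are highest in snf22∆, SPNCRNA.511 and SPNCRNA.963 are high in snf22-(D996A-E997A) only, and omt3, SPNCRNA.863 and SPNCRNA.1358 are highest in WT.

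A pair of overlapping RNAs read from opposite strands between mfs3 and SPBC36.02c, both annotated as spermidine transporters, rose in both mutants. SPNCRNA.1390 had normalized counts of 879.6, 996.98 and 987 in snf22-(D996A-E997A), 755, 704 and 655 in snf22∆, and 168, 142 and 176 in WT. Its change was 2.56 ± 0.12 in snf22-(D996A-E997A) (adjusted p = 3.27e-08) and 2.12 ± 0.11 in snf22∆ (adjusted p = 9.73e-08). Its partner SPNCRNA.1389 rose by 1.51 ± 0.11 and 1.51 ± 0.11, with means of 383, 384 and 135 in snf22-(D996A-E997A), snf22∆ and WT. mfs3, which ends on the side of both RNAs, fell in both mutants, with log2 fold changes of -0.68 ± 0.08 in snf22-(D996A-E997A) and -2.14 ± 0.09 in snf22∆. SPBC36.02c did not pass in either mutant (adjusted p = 0.404 and 0.0839).

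SPNCRNA.1343 lies between tgp1, a glycerophosphodiester transporter gene of the phosphate regulon, and SPBC1271.08c, and is read away from tgp1. It had 592, 557 and 597 in snf22-(D996A-E997A), 628, 643 and 695 in snf22∆, and 201, 223 and 239 in WT, and every mutant library was above every WT library. The change was 1.40 ± 0.10 in snf22-(D996A-E997A) (adjusted p = 2.11e-06) and 1.57 ± 0.10 in snf22∆ (adjusted p = 5.53e-07), and the difference between the mutants did not pass (log2 fold change -0.17 ± 0.10, adjusted p = 0.259). SPBC1271.08c, which follows it on the same strand, moved the other way, by -1.99 ± 0.18 and -2.37 ± 0.18, as did tgp1, by -1.28 ± 0.17 and -0.53 ± 0.16.

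Of the 14 RNAs called higher in both mutants, 3 are described here with a neighbour that encodes an enzyme of sugar metabolism; they were picked by that neighbour, and no list or enrichment was tested. SPNCRNA.1550 ends 1 base before tdh1, a glyceraldehyde-3-phosphate dehydrogenase gene on the same strand, and is described as a possible alternative UTR. It rose by 1.71 ± 0.21 in snf22-(D996A-E997A) and 1.41 ± 0.21 in snf22∆, and tdh1 by 0.86 ± 0.30 (adjusted p = 0.0332) and 0.93 ± 0.30 (adjusted p = 0.0199). SPNCRNA.1325 ends 39 bases before fbp1, the gluconeogenic enzyme fructose-1,6-bisphosphatase, on the same strand. It rose by 1.08 ± 0.15 and 1.40 ± 0.15, and fbp1 rose by 0.92 ± 0.17 and 1.43 ± 0.17. SPNCRNA.1501 starts beside pfk1, a phosphofructokinase gene read in the other direction. It rose by 1.60 ± 0.14 and 1.31 ± 0.14, with pfk1 at 0.25 (adjusted p = 0.0164) and -0.18 (adjusted p = 0.059). Both tdh1 and fbp1 thus moved in the direction of the RNA before them. SPNCRNA.1325 and SPNCRNA.1501 too are described as possible alternative UTRs, whose reads cannot be told apart from those of a longer neighbouring mRNA. SPNCRNA.1501 also ends 61 bases before SPBC12D12.01 on its own strand, whose change is not given here. Downstream genes on the strand of any RNA called higher were mixed by the adjusted p. In snf22-(D996A-E997A), 4 of 12 were higher and 2 lower, and in snf22∆ 5 of 18 were higher and 8 lower.

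The remaining RNAs called higher in both mutants were SPNCRNA.1571, SPNCRNA.768, SPNCRNA.1156, SPNCRNA.679, SPNCRNA.1534 and SPNCRNA.1424, with log2 fold changes of 1.32 to 1.74 in snf22-(D996A-E997A) and 1.15 to 2.07 in snf22∆. SPNCRNA.1571 had the highest counts of these, 1199, 1012 and 989 in snf22-(D996A-E997A), 1131, 1233 and 1131 in snf22∆, and 282, 388 and 285 in WT. It reads away from gsf1, a transcription factor gene, and its neighbour SPNCRNA.1572 on the other strand rose by 0.79 ± 0.12 in snf22-(D996A-E997A), short of 2-fold, and 1.35 ± 0.12 in snf22∆. SPNCRNA.768 had 242, 214 and 210.1 in snf22-(D996A-E997A), 250.2, 239 and 224 in snf22∆, and 84.0, 69.3 and 84.3 in WT, without overlap between the mutants and WT. SPNCRNA.1534 starts 671 bases from the start of mam1, the exporter of the mating pheromone M-factor, which was 0.77 in snf22-(D996A-E997A) and -0.33 in snf22∆. SPNCRNA.1424 rested in part on 1 library in snf22∆: its change there was 1.15, and 0.83 without WT replicate 2.

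A further 12 RNAs were called higher in snf22∆ only, SPNCRNA.1120, meu3 and meu19 among them. SPNCRNA.1607, which overlaps SPBPB7E8.02, a PSP1 family gene, on the other strand over 24.5% of its length, had 97.3, 96.3 and 102 in snf22-(D996A-E997A), 259, 235 and 268 in snf22∆, and 57.6, 51.1 and 53.2 in WT. It rose by 0.87 ± 0.15 in snf22-(D996A-E997A), short of 2-fold, and 2.23 ± 0.14 in snf22∆, and SPBPB7E8.02 rose by 0.53 and 1.65. SPNCRNA.1609, between exg1, a cell wall glucanase gene, and cbp1, had 187, 176 and 178 in snf22-(D996A-E997A), 454, 369 and 405 in snf22∆, and 118, 98.8 and 115 in WT. Its change was 0.70 ± 0.14 and 1.88 ± 0.13, while exg1 was -0.63 and -0.67 and cbp1 -0.49 and -0.55, given for snf22-(D996A-E997A) and then snf22∆. SPNCRNA.1115 and SPNCRNA.1116, of which the first overlaps SPCC1235.01 on its strand and the second starts beside it and runs the other way, rose in snf22∆ by 1.26 ± 0.16 and 1.15 ± 0.18. In snf22-(D996A-E997A) the change of SPNCRNA.1115 did not pass (adjusted p = 0.495) and SPNCRNA.1116 rose by 0.75 ± 0.18. SPCC1235.01 itself rose by 0.57 ± 0.14 and 1.70 ± 0.14. The others were SPNCRNA.1035 (1.56), SPNCRNA.626 (1.48), SPNCRNA.1572, SPNCRNA.935 (1.15) and SPNCRNA.1014 (1.00), as log2 fold changes in snf22∆. SPNCRNA.1014 was at the threshold: without WT replicate 1 its change was 0.87, without WT replicate 2 it was 0.86, without snf22∆ replicate 3 it was 0.92 and without snf22-(D996A-E997A) replicate 3 it was 0.99.

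The 5 RNAs called higher in snf22-(D996A-E997A) only were SPNCRNA.511, SPNCRNA.291, SPNCRNA.963, SPNCRNA.1055 and SPNCRNA.810. SPNCRNA.511, which touches mpg1, a mannose-1-phosphate guanyltransferase gene, on the same strand, had 418, 477 and 435 in snf22-(D996A-E997A), 163, 149 and 148 in snf22∆, and 154, 118 and 112 in WT. Its change was 1.78 ± 0.14 in snf22-(D996A-E997A) (adjusted p = 3.79e-06) and 0.25 ± 0.15 in snf22∆ (adjusted p = 0.165), and mpg1 changed by 0.75 and 0.26. SPNCRNA.963 had 252, 282 and 277 in snf22-(D996A-E997A), 84.0, 104 and 103 in snf22∆, and 86.9, 110.1 and 93.4 in WT. It rose 2.79-fold in snf22-(D996A-E997A) (log2 fold change 1.48 ± 0.15, adjusted p = 2.74e-05), and the snf22∆ libraries lay within the range of WT except for 1 below it. Of its 50-base words, 23.7% occur elsewhere in the genome. SPNCRNA.291 rose by 1.73 ± 0.22 in snf22-(D996A-E997A) and 0.87 ± 0.23 in snf22∆. SPNCRNA.1055 rose by 1.38 ± 0.15 and 0.49 ± 0.15. For SPNCRNA.810 the changes were 1.25 ± 0.22 and 1.00 ± 0.22, the second just under 2-fold. SPNCRNA.291, SPNCRNA.1055 and SPNCRNA.810 passed the adjusted p in snf22∆ as well, and SPNCRNA.511 and SPNCRNA.963 did not.

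omt3, annotated as a meiosis-specific lncRNA, had the largest decrease. Its normalized counts were 176, 113 and 84.0 in snf22-(D996A-E997A), 14.0, 13.0 and 7.87 in snf22∆, and 320.2, 589 and 537 in WT, with no overlap between any groups. The log2 fold change was -1.95 ± 0.28 in snf22-(D996A-E997A) (adjusted p = 2.87e-04) and -5.34 ± 0.37 in snf22∆ (adjusted p = 7.83e-07), that is 3.86-fold and 40.5-fold lower than in WT. snf22-(D996A-E997A) was 10.5-fold higher than snf22∆ (log2 fold change 3.39 ± 0.39, adjusted p = 1.24e-04), and 3.06 without snf22-(D996A-E997A) replicate 1, where its mean is too low for a call. omt3 starts 1044 bases from the start of mei2, the RNA-binding protein that switches cells into meiosis, and runs the other way. The log2 fold change of mei2 was 0.09 ± 0.09 in snf22-(D996A-E997A) (adjusted p = 0.448) and -1.66 ± 0.10 in snf22∆ (adjusted p = 1.86e-07). omt2, which follows omt3 on its own strand, rose by 0.78 ± 0.16 and 0.86 ± 0.16. The M-cell marker genes were also lowest in snf22∆, as given above, and their part in this result was not tested. The start region is shown because it holds 4 matches to TATAAA, in capitals, at 240, 95 and 52 bases before the annotated start and, on the other strand, at 97 bases; it is RefSeq's, on the plus strand of chromosome I, in the same window as before.
omt3: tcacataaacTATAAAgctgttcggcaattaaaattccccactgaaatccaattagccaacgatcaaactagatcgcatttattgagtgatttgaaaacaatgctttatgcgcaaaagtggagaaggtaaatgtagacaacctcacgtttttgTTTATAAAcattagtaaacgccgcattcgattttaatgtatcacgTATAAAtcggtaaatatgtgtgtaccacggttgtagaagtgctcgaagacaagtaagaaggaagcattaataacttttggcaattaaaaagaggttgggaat

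**Figure D3:**
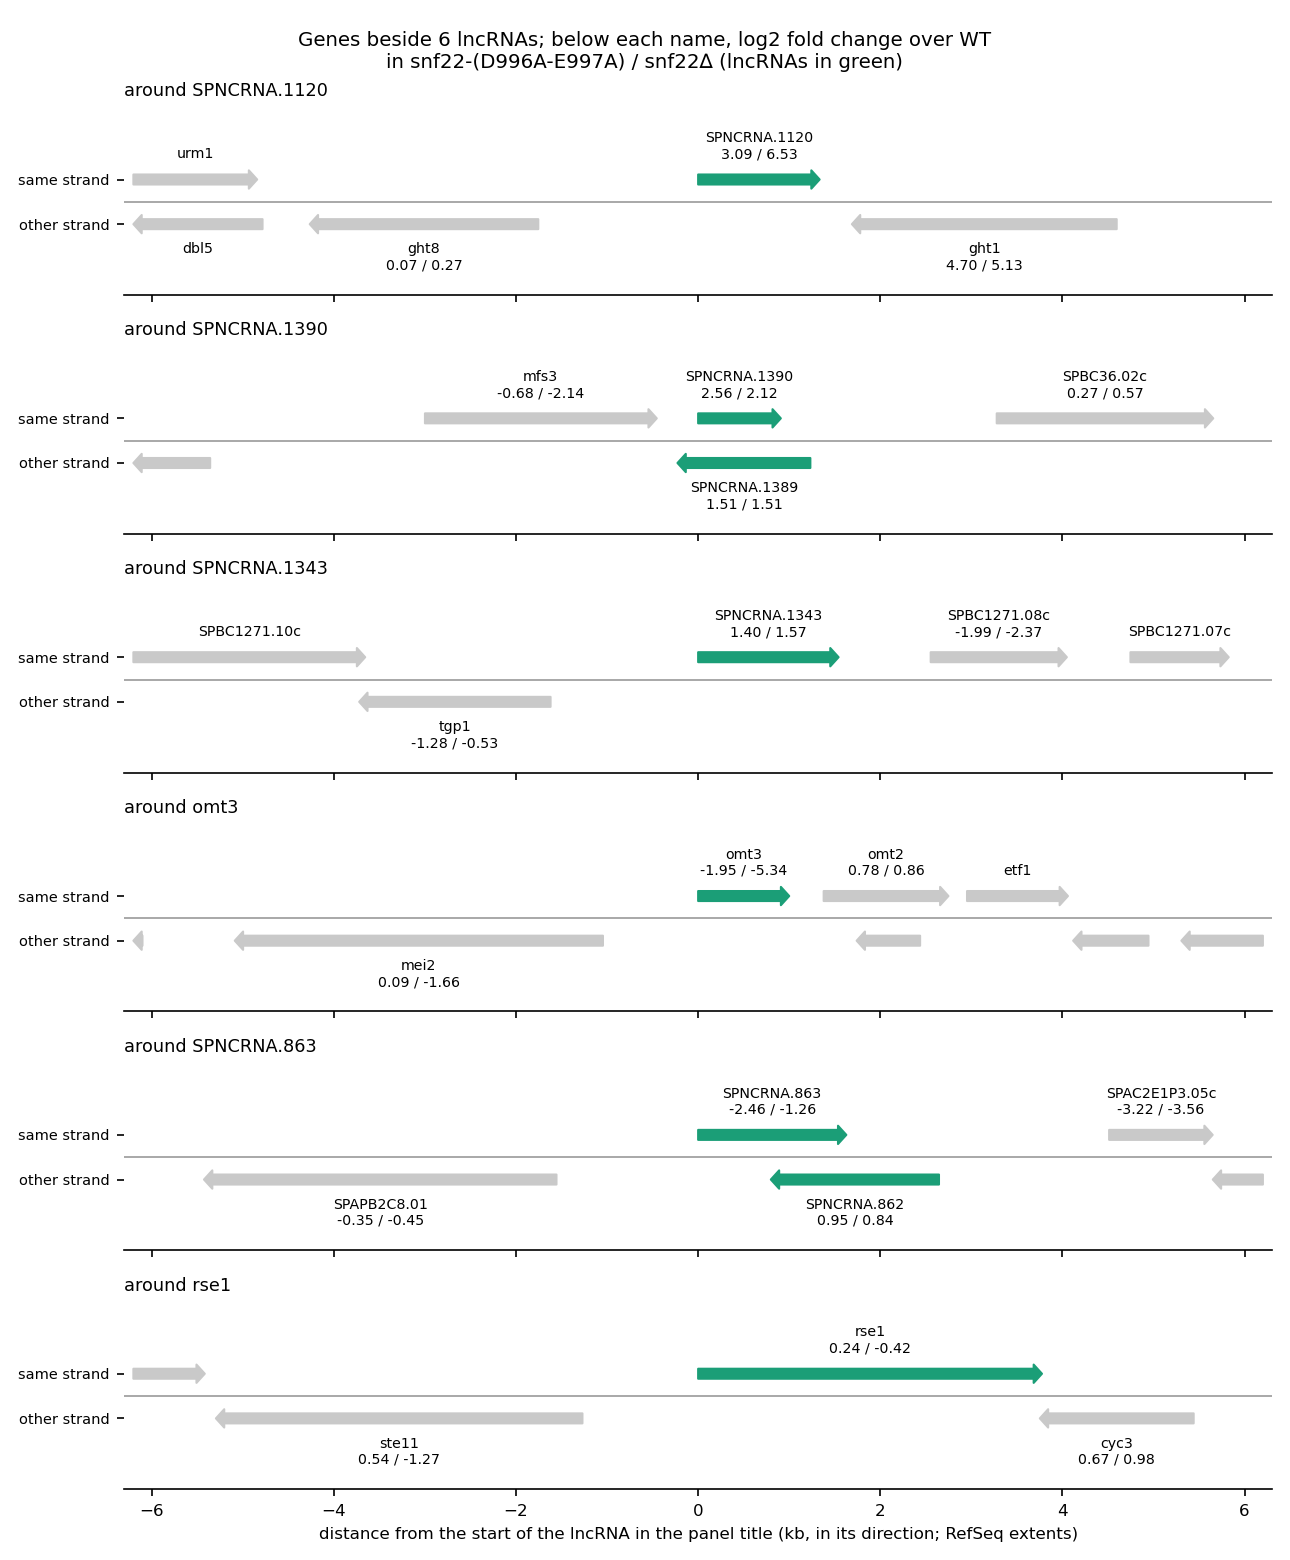
Maps of 6 loci, with distance in kb from the start of the lncRNA named above each map on the horizontal axis (in its direction, RefSeq extents) and its own strand above the line. Green arrows are lncRNAs of the set and grey arrows coding genes; the numbers are log2 fold changes over WT in snf22-(D996A-E997A) and then snf22∆, and ght1 rises with SPNCRNA.1120, SPBC1271.08c falls where SPNCRNA.1343 rises, and SPAC2E1P3.05c falls with SPNCRNA.863.

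SPNCRNA.863 was the most abundant of the RNAs called lower. It had 388, 309 and 297 in snf22-(D996A-E997A), 620.3, 714 and 946 in snf22∆, and 1614, 1569 and 2295 in WT, and the groups followed one another without overlap. Its change was -2.46 ± 0.19 in snf22-(D996A-E997A) (adjusted p = 2.71e-06) and -1.26 ± 0.18 in snf22∆ (adjusted p = 2.03e-04), and the difference between snf22-(D996A-E997A) and snf22∆ was -1.20 ± 0.19 (adjusted p = 0.00134). SPAC2E1P3.05c, a cellulose-binding domain gene that follows it on the same strand, had log2 fold changes of -3.22 ± 0.13 and -3.56 ± 0.13. SPNCRNA.862 overlaps SPNCRNA.863 on the other strand and moved up, by 0.95 ± 0.15 and 0.84 ± 0.15, short of 2-fold in both. In this locus 54.8% of the 50-base words of SPNCRNA.863 and 11.6% of those of SPNCRNA.862 occur elsewhere in the genome, and reads from those words cannot be assigned to this locus alone.

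SPNCRNA.1358 overlaps eca39, the branched chain amino acid aminotransferase gene, on the other strand and had 170.0, 170.1 and 174 in snf22-(D996A-E997A), 141, 126 and 146 in snf22∆, and 337, 442 and 458 in WT. It fell in both mutants, with log2 fold changes of -1.26 ± 0.14 and -1.58 ± 0.14 in snf22-(D996A-E997A) and snf22∆, and eca39 changed by -0.63 ± 0.14 and -1.50 ± 0.14. SPNCRNA.1278 starts 1001 bases from the start of bgs4, a cell wall glucan synthase gene. It had 93.4, 76.7 and 100.4 in snf22-(D996A-E997A), 138, 127 and 95.4 in snf22∆, and 271, 258 and 279 in WT. Its change was -1.58 ± 0.17 and -1.16 ± 0.16. Both RNAs thus had every WT library above every mutant library.

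In snf22-(D996A-E997A) only, prl1, mrp1, SPNCRNA.1431, SPNCRNA.721 and SPNCRNA.1666 were called lower. SPNCRNA.1431, which starts 77 bases from a magnesium transporter gene and runs towards tom40, had 75.7, 87.5 and 86.1 in snf22-(D996A-E997A), 202, 211 and 193 in snf22∆, and 212, 208 and 189 in WT. The change in snf22-(D996A-E997A) was -1.29 ± 0.14 (adjusted p = 3.40e-05), and the snf22∆ libraries lay within the range of WT. prl1, a poly(A)-bearing RNA that was not matched to the reference, had 356, 345 and 300.2 in snf22-(D996A-E997A), 350.0, 377 and 349 in snf22∆, and 624, 789 and 672 in WT. Its log2 fold changes were -1.06 ± 0.12 and -0.95 ± 0.12, of which the first alone crossed 2-fold. Its change in snf22-(D996A-E997A) was -0.98 without snf22-(D996A-E997A) replicate 3 and -0.97 without WT replicate 2. SPNCRNA.721 was at -1.01 ± 0.15, and at -0.94 to -0.99 without WT replicate 1 or 2 or without snf22-(D996A-E997A) replicate 1 or 3. SPNCRNA.1666, between ilv5 and met6, was at -1.05 ± 0.33 (adjusted p = 0.0221). It did not pass without WT replicate 2 (-0.69) or without snf22-(D996A-E997A) replicate 2 (-0.96) or 3 (-0.77).

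The 3 called lower in snf22∆ only were SPNCRNA.675 (-1.23 ± 0.15), SPNCRNA.1483 (-1.10 ± 0.13) and SPNCRNA.1125 (-1.02 ± 0.23), as log2 fold changes over WT. In snf22-(D996A-E997A) they were at -0.85 ± 0.15, -0.97 ± 0.13 and -0.48 ± 0.22, and the last of these did not pass (adjusted p = 0.0923). SPNCRNA.675 overlaps rgs1, a regulator of pheromone signalling, on the other strand, and had 128.74, 103 and 112 in snf22-(D996A-E997A), 85.7, 89.3 and 88.5 in snf22∆, and 196, 235 and 189 in WT. SPNCRNA.1125 moved to -0.90 without snf22∆ replicate 1 and to -0.84 without WT replicate 2.

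Of the 8 RNAs with a described function, omt3, meu3 and mrp1 were called in a comparison with WT, rrk1, snoR61 and rse1 passed the adjusted p in 1 mutant without reaching 2-fold, and ter1 and nam1 passed in no comparison. ter1, the telomerase RNA, had normalized counts of 314, 359 and 372 in snf22-(D996A-E997A), 342, 319 and 309 in snf22∆, and 333, 359.9 and 309.9 in WT, and none of its 3 comparisons passed (adjusted p = 0.695, 0.74 and, between the mutants, 0.572). Likewise nam1, an lncRNA upstream of byr2, a kinase gene of the mating pathway, had 303, 482 and 489 in snf22-(D996A-E997A), 507, 492 and 444 in snf22∆, and 456, 375 and 427 in WT and passed in none. The libraries of the 3 genotypes overlapped for both. mrp1, the RNA of RNase MRP, which cuts precursor ribosomal RNA, had 121, 92.4 and 93.2 in snf22-(D996A-E997A), 205, 209 and 179 in snf22∆, and 181, 354 and 268 in WT. It fell in snf22-(D996A-E997A), with a log2 fold change of -1.38 ± 0.23 (adjusted p = 6.97e-04), and its value in snf22∆, -0.43 ± 0.22, did not pass (adjusted p = 0.105). rrk1, the RNA of RNase P, which trims the leader of precursor tRNAs, had 84.5, 77.7 and 72.8 in snf22-(D996A-E997A), 151, 158 and 148 in snf22∆, and 107, 125 and 179 in WT. Its log2 fold change was -0.80 ± 0.20 in snf22-(D996A-E997A) (adjusted p = 0.00687), short of 2-fold, and did not pass in snf22∆ (adjusted p = 0.483). In both enzyme RNAs the snf22-(D996A-E997A) libraries lay below all others. snoR61, a small nucleolar RNA, was 0.42 ± 0.13 in snf22-(D996A-E997A) (adjusted p = 0.0233) and did not pass in snf22∆ (adjusted p = 0.404). The libraries were made from polyadenylated RNA, so counts of RNAs whose mature form carries no tail cover only what that selection retained.

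rse1 is annotated as a repressor in cis of ste11, the transcription factor gene that starts the mating and meiotic programme, and the 2 genes start 1269 bases apart and read away from each other. rse1 was among the most abundant of the set, with 3227, 2684 and 2654 in snf22-(D996A-E997A), 1911, 1802 and 1701 in snf22∆, and 2387, 2728 and 2126 in WT. It did not reach 2-fold: the log2 fold change was 0.24 ± 0.10 in snf22-(D996A-E997A) (adjusted p = 0.0703) and -0.42 ± 0.10 in snf22∆ (adjusted p = 0.00536), with snf22-(D996A-E997A) above snf22∆ by 0.66 ± 0.10 (adjusted p = 0.00129). ste11 had log2 fold changes of the same signs, 0.54 ± 0.12 in snf22-(D996A-E997A) and -1.27 ± 0.12 in snf22∆, and 1.81 ± 0.12 between the mutants. The M-cell markers had the same order of genotypes, and their part in these values was not tested.

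The other abundant RNAs were SPNCRNA.388, SPNCRNA.1097 and SPNCRNA.1443. SPNCRNA.1443 had 1168, 1271 and 1213 in snf22-(D996A-E997A), 836, 899 and 930.4 in snf22∆, and 1542, 1595 and 1379.9 in WT and fell in both mutants, with log2 fold changes of -0.31 ± 0.08 in snf22-(D996A-E997A) and -0.76 ± 0.08 in snf22∆, below 2-fold in both. It starts 2051 bases from the start of isp4, an oligopeptide transporter gene read in the other direction, which had -2.92 ± 0.19 and -3.05 ± 0.19. SPNCRNA.388 had 1281, 935 and 918 in snf22-(D996A-E997A), 1028, 1027 and 1807 in snf22∆, and 1068, 1306 and 1052 in WT, with 1 snf22∆ library far above the others, and passed in no comparison. SPNCRNA.1097, the neighbour of meu3, also passed in none, with means of 933, 976 and 1047. prl53 passed in none either (adjusted p = 0.777, 0.793 and 0.987). Of the RNAs at the edge of the count minimum, SPNCRNA.1284 rose by 0.72 ± 0.18 in snf22-(D996A-E997A), short of 2-fold, and SPNCRNA.907 and SPNCRNA.1533 passed in no comparison.

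The 2 mutants were compared directly to ask whether loss of the protein and loss of its ATPase act on the same RNAs to the same extent. Between snf22-(D996A-E997A) and snf22∆, 4 of the 129 (3.1%) were called higher in snf22-(D996A-E997A), beside 0.969% of all genes, and 9 (6.98%) were called lower, beside 0.887%. By the adjusted p alone these numbers were 16 and 24, beside 8.13% and 8.64% of all genes, and the 16 became 9 without snf22∆ replicate 2. The RNAs called higher were omt3, SPNCRNA.511, SPNCRNA.963 and SPNCRNA.680, and those called lower were SPNCRNA.1120, meu3, SPNCRNA.1607, SPNCRNA.1431, SPNCRNA.863, meu19, SPNCRNA.1609, SPNCRNA.989 and SPNCRNA.1115. SPNCRNA.680, which had 322, 377 and 371 in snf22-(D996A-E997A), 173, 204 and 156 in snf22∆, and 189, 261 and 210.1 in WT, was called only here (1.00 ± 0.15). It stood at the 2-fold threshold, with 0.92 to 0.99 without any 1 of snf22∆ replicates 1 and 3 and snf22-(D996A-E997A) replicates 2 and 3. SPNCRNA.1115 was at -1.12, and at -0.99 without snf22-(D996A-E997A) replicate 2.

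Of the 31 RNAs called higher in at least 1 mutant, 20 were farther from WT in snf22∆ than in snf22-(D996A-E997A), and 17 of the 31 differed between the mutants by the adjusted p. Of the 12 called lower, 5 were farther from WT in snf22∆, and 4 differed. These RNAs were picked by the changes that are compared here, and 12 were called higher in snf22∆ only against 5 in snf22-(D996A-E997A) only. The same counts over all called genes were not made, so they do not show which mutant had the larger effect. SPNCRNA.1185 was the 1 RNA that passed the adjusted p in opposite directions. It had 152, 143 and 131 in snf22-(D996A-E997A), 269, 251 and 245 in snf22∆, and 203, 210.0 and 169 in WT, with WT between the mutants and no overlap. Its changes were -0.45 ± 0.14 (adjusted p = 0.019) in snf22-(D996A-E997A) and 0.39 ± 0.13 (adjusted p = 0.0251) in snf22∆, both below 2-fold, and -0.84 ± 0.13 between the mutants (adjusted p = 0.00145).

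The calls were also counted by the position of the RNAs relative to coding genes, with each RNA's nearest coding neighbour taken at any distance. Of the 11 RNAs with only a downstream gene on their own strand, 3 were called higher in snf22-(D996A-E997A) and 5 in snf22∆, and none was called lower. Of the 17 with only a divergent neighbour, 3 were called upward and 1 downward in snf22-(D996A-E997A), against 5 and 0 in snf22∆. The 42 with both had 8 higher and 6 lower, and 10 and 5, in the same order. Among the 35 that overlap a coding gene only on the other strand, 2 calls were upward and 1 downward in snf22-(D996A-E997A), against 3 and 2 in snf22∆, and among the 21 that overlap one on their own strand 3 were higher and none lower in both. Over all genes tested, upward calls made up 1.9% in snf22-(D996A-E997A) and 2.56% in snf22∆, and downward calls 3.07% and 3.09%. The choice of the RNAs favours upward calls, so those shares are not a matched reference. The classes are small and differences between them were not tested. The 36 RNAs described as possible alternative UTRs had 7 upward calls and 1 downward in snf22-(D996A-E997A), against 9 and 0 in snf22∆, so 19.4% and 25% were called higher, beside 13.9% and 17.7% of the 79 predicted intergenic RNAs. Reads of these RNAs and of a longer form of the neighbouring mRNA cannot be told apart in the counts.

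**Figure D4:**
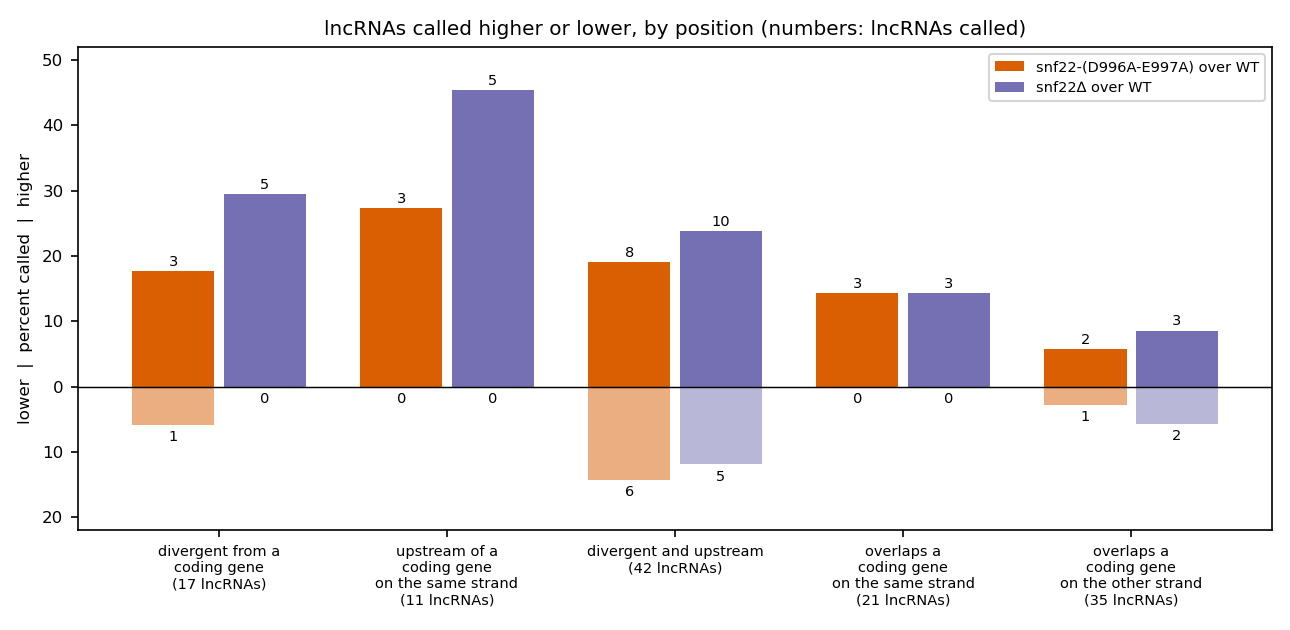
Percentage of lncRNAs called higher (solid, upward) or lower (pale, downward) than in WT in snf22-(D996A-E997A) (orange) and snf22∆ (purple), for 5 positions relative to coding genes; the numbers on the bars are lncRNAs called. The bars upward are longest for the 11 lncRNAs upstream of a coding gene on their own strand, with 3 and 5 called. Of all genes tested, 1.9% were called upward in snf22-(D996A-E997A) and 2.56% in snf22∆, while 3.07% and 3.09% were called downward.

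The coding neighbours of the called RNAs were counted by the adjusted p alone, which over all genes 25.8% passed upward and 22.7% downward in snf22-(D996A-E997A), and 30.2% and 25.8% in snf22∆. Downstream genes on the same strand could be read for 12 of the RNAs called higher in snf22-(D996A-E997A), and 4 of these genes were higher and 2 lower by the adjusted p. In snf22∆ there were 18 such genes, of which 5 were higher and 8 lower. Genes that start beside the RNA on the other strand numbered 13 in snf22-(D996A-E997A), with 7 higher and 4 lower, and 19 in snf22∆, with 7 higher and 6 lower. Genes on the same strand that end before an RNA called higher were 5 higher and 1 lower of 6 in snf22-(D996A-E997A), with a median log2 fold change of 0.70, and 2 higher and 2 lower of 7 in snf22∆, with a median of -0.10. For the RNAs called lower, the downstream genes were 1 higher and 4 lower of 7 in snf22-(D996A-E997A) and 2 higher and 4 lower of 7 in snf22∆. The numbers are small, and no difference from the background was tested.

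The lncRNAs named antisense give a second reference. Of the 260 antisense RNAs with a mean raw count of at least 100, 13 (5%) were called upward and 39 (15%) downward in snf22-(D996A-E997A), against 14 (5.38%) and 30 (11.5%) in snf22∆. The median log2 fold changes of the antisense RNAs were -0.14 in both. The difference between the 2 kinds of RNA was not tested.

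Genes of the machinery that handles such RNAs changed by small amounts. Of 33 genes listed under nuclear RNA surveillance (among them exosome, MTREC and termination factors), 32 were tested, and ars2 was not found. Of the 32, 11 passed the adjusted p upward and 3 downward in snf22-(D996A-E997A), against 15 and 4 in snf22∆, with none past the call threshold in either. Over all genes, 25.8% passed upward and 22.7% downward in snf22-(D996A-E997A), and 30.2% and 25.8% in snf22∆, so the upward counts of 32 genes stood somewhat above that share and the downward counts below it, which was not tested. Their median log2 fold change was 0.23 and 0.27, beside 0.02 over all genes. Of 11 meiotic mRNAs that this machinery removes in growing cells through the RNA-binding protein Mmi1, 4 passed upward and 0 downward in snf22-(D996A-E997A), against 4 and 1 in snf22∆, and 1 was called higher, in snf22∆. With 11 genes, the upward counts were near the share of all genes, of which 2.56% were called higher in snf22∆. Their median log2 fold change was 0.18 in snf22-(D996A-E997A) and 0.51 in snf22∆, beside 0.02 over all genes, which was not tested. The list held 14 genes, of which rec8 and mug9 were not tested and mcp5 was not found.

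The 300-base windows around the annotated starts were searched on both strands for 4 sequences: the HomolD box and the TATA sequence TATATATA, which are elements of known lncRNA promoters in this yeast, TATAAA, and TGACGT, part of the site of the stress factor Atf1. Of the 128 windows, 3 (2.34%) held the HomolD box, 14 (10.9%) TATATATA, 61 (47.7%) TATAAA and 12 (9.38%) TGACGT. Over all 12605 annotated genes with a full window the shares were 1.65%, 5.48%, 45.3% and 5.49%. Of the 31 RNAs called higher in at least 1 mutant, 0 windows held the HomolD box, 3 TATATATA, 9 TATAAA and 4 TGACGT. Of 11 called lower that could be placed, the windows with each sequence numbered 1, 1, 6 and 0. TATATATA contains no TATAAA, but the 2 can overlap within a longer run. A match describes only the letters in the window.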

How the data were processed

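Poly(A)+ RNA of 9 log-phase cultures was sequenced as stranded paired reads. The authors aligned the reads with HISAT2 2.1.0 and counted them over gene exons with HTSeq 0.10.0, and the deposited counts are raw and unscaled; the strand setting of the counting is not given in the sources used here. The deposited tables of the authors' own DESeq2 comparisons (fold changes, p-values and means) served only for gene names and product descriptions.

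Here, the 6091 genes that reached 10 counts in 3 or more libraries were fitted with edgeR 4.0.16 (R 4.3.3; TMM, quasi-likelihood test, group as the only factor, all 9 libraries), with Benjamini-Hochberg adjustment over all of them. The totals of 15696972 to 22664218 counts per library limit the precision of RNAs near 100 counts. Counts were also simulated for snf22∆ against WT over 6068 genes. All 100 genes changed 2-fold and all 100 changed 4-fold passed the adjusted p, as did 7 of 5868 unchanged ones. The simulation was not summarized for the lncRNAs apart. It therefore cannot show how many changed or unchanged RNAs near 100 counts would pass. Each genotype was 1 strain, so p-values measure the spread between cultures of that strain. Alternatives were RLE size factors, TMM from coding genes, DESeq2 1.42.0, other count filters, fits of only the groups compared, a replicate block, no minimum mean count and leaving out each library. Between snf22∆ and WT, deviations from the group means correlated across genes at 0.29, 0.23 and 0.47 for equal replicate numbers. Unequal numbers gave -0.33 to 0.09. Between snf22-(D996A-E997A) replicate 1 and WT replicate 2, however, the value was 0.32. The labels name no batch, so whether equal numbers mark cultures handled together is not known.

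The members and lists were chosen with earlier results of these data known. Named with values were the members called in a comparison (the 15 largest changes each way) and those past the adjusted p in opposite directions. So were those with a described function, the 5 most abundant and those at the edge of the count minimum. SPNCRNA.1156 and SPNCRNA.679 have only a range shared with others. SPNCRNA.1325, SPNCRNA.1572, SPNCRNA.1116, SPNCRNA.1534, SPNCRNA.935, SPNCRNA.1014, SPNCRNA.810 and SPNCRNA.1055 were named beyond that rule, after their values were seen. Changes of coding neighbours are given for only some of the named RNAs, and these neighbours were not picked by a set rule. Lengths, neighbours and sequences are RefSeq's (ASM294v3). The authors aligned to ASM294v2, so no coordinates are given.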

Additional observations from a re-analysis of the deposited data

Results flagged for a closer look

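In the direct comparison of the mutants, 16 RNAs passed the adjusted p upward and 24 downward, read as snf22-(D996A-E997A) over snf22∆. Only 14 of them are flagged here. Of these, 13 were called in that comparison, and SPNCRNA.1185 passed the adjusted p against WT in opposite directions. RNAs that met neither rule are left out, even where they differed more than SPNCRNA.1185, as SPNCRNA.1035 did (log2 fold change -0.98). As log2 fold changes of snf22-(D996A-E997A) over snf22∆, with edgeR's quasi-likelihood test, the differences were 3.39 for omt3, 1.53 for SPNCRNA.511, 1.48 for SPNCRNA.963 and 1.00 for SPNCRNA.680, all higher in snf22-(D996A-E997A). They were -3.44 for SPNCRNA.1120, -2.37 for meu3, -1.36 for SPNCRNA.1607, -1.28 for SPNCRNA.1431, -1.20 for SPNCRNA.863, -1.19 for meu19, -1.18 for SPNCRNA.1609, -1.16 for SPNCRNA.989 and -1.12 for SPNCRNA.1115, all lower in snf22-(D996A-E997A). For SPNCRNA.1185 the difference was -0.84. Groups of 3 libraries were too small for a search for outlying libraries.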

How the results depend on the processing

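The counts of RNAs called stayed within 1.5 times of those reported under every alternative. Without 1 library, they were 19 to 21 higher and 6 to 10 lower in snf22-(D996A-E997A), 25 to 29 and 6 to 10 in snf22∆, and 3 to 4 and 9 to 12 between the mutants. The number higher in snf22-(D996A-E997A) than in snf22∆ by the adjusted p alone, 16, was 27 in a fit of only the 2 groups compared and 9 to 21 without 1 library. Of the log2 fold changes of named RNAs under the alternatives, 2188 kept their sign and their side of the threshold, 49 lost the threshold, 33 gained it and 2 changed sign, both between the mutants: SPNCRNA.388 was 0.023 without snf22∆ replicate 3 (range without 1 library -0.47 to 0.023) and SPNCRNA.1666 was 0.0029 without snf22-(D996A-E997A) replicate 3 (range -0.73 to 0.0029). SPNCRNA.1014 also lost its call in snf22∆, at 0.97 to 1.00, under RLE factors, TMM from coding genes, DESeq2, the filter of 50 counts and the fit of only the 2 groups, and SPNCRNA.721 fell just short of 2-fold in snf22-(D996A-E997A) with no filter beyond 1 count. The replicate block changed no call; by the adjusted p alone it added SPNCRNA.1666 (-0.74) in snf22∆, rse1 (0.24) in snf22-(D996A-E997A) and, between the mutants, SPNCRNA.1116 (-0.41) among named RNAs. The block left snf22-(D996A-E997A) against WT at 47 higher and 25 lower by the adjusted p. Equal numbers correlated there at -0.24, 0.05 and 0.16, and between the mutants at -0.03, 0.09 and 0.03. The causes were not tested.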
